A study of Homo sapiens with 6 samples.

Results

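The cytoskeletal transcripts described here are those of ACTB, ACTG1, VIM, its antisense gene VIM-AS1, and TMSB4X, chosen as all entries of the GAPDH crosslink lists that carry one of these 5 symbols. They made up 19 of the 1776 pairs of a peak and a gene, and 16 of the 1316 peaks counted over the 3 lists. The genes were selected on their peaks in these lists, so that the presence and number of their peaks is a description and was not tested. Human MOLM-13 cells, an acute myeloid leukaemia line, were kept under galactose, low glucose or normal glucose conditions, with 2 samples for each condition and no further agent named in the labels. GAPDH, the glycolytic enzyme glyceraldehyde-3-phosphate dehydrogenase, was precipitated after crosslinking, and the RNA attached to it was shortened with RNase T1 (a nuclease that cuts after G) and sequenced, an assay called CLIP-seq. This account follows the study's methods, while the extraction protocol in the labels describes total RNA with rRNA removed and no crosslinking. The design asks whether the RNAs contacted by GAPDH depend on the sugar supplied. The authors joined both samples of a condition into 1 list of positions, without counts, scores or strand, so the depth is unknown, the spread between replicates cannot be given, and all differences below are between lists. Of 10 markers of myeloid cells and leukaemic blasts, CEBPA had a peak, and the markers of T cells, B cells and erythroid cells had 0 of 3 each. A missing peak does not measure expression, so the labelled cell type was not tested by these lists.

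Beta-actin (ACTB) and gamma-actin (ACTG1) are the cytoplasmic actins of non-muscle cells, which polymerise into the filaments that shape the cell cortex. Thymosin beta-4 (TMSB4X) binds actin monomers and holds them back from the filaments. Vimentin (VIM) forms intermediate filaments in cells of mesenchymal and blood origin, and VIM-AS1 is a long non-coding RNA (lncRNA) transcribed from the opposite strand across the start of VIM. The actin and thymosin mRNAs are among the abundant mRNAs of blood cells and have left many processed pseudogenes, which are copies of the spliced mRNA elsewhere in the genome.

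The peaks of these genes lay towards the 5′ ends of the transcripts, apart from a site near the end of the ACTG1 coding sequence. By the middle of the peak, 9 of 16 fell in coding sequence and 7 in the 5′UTR, and none in a 3′UTR or an intron. With their outer bases, 9 of the 16 peaks reached into an intron of the canonical transcript. The galactose list held 2 of these peaks, the low glucose list 8 and the normal glucose list 6, out of 337, 484 and 495 peaks in all. Both galactose peaks were at a transcript start, 6 of 8 low glucose peaks were in coding sequence, and the normal glucose peaks were split between transcript starts and coding sequence, with 3 each. The lists as a whole also differed in this respect. Of the peaks in exons of protein coding genes, the share in coding sequence was 41.2% for galactose, 56% for low glucose and 67.5% for normal glucose. Here and below, this set leaves out peaks also annotated to a gene that is neither protein coding nor an lncRNA.

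The first sequences shown are the transcript starts of ACTB, ACTG1 and TMSB4X, because 6 of the 16 peaks began there. They were read from hg38 on the strand of the gene, 5′ to 3′, and capitals mark the bases of the canonical transcript.
ACTB, chr7:5530582-5530611, minus strand: acgcgccaccACCGCCGAGACCGCGTCCGC
ACTG1, chr17:81512780-81512809, minus strand: cgcggtcggtCTCAGTCGCCGCTGCCAGCT
TMSB4X, chrX:12975100-12975129, plus strand: cccgcccgacAACTCGGTGGTGGCCACTGC
The smallest width in each list was 101 nt, which is a single crosslink site with the 50 nt that the methods describe added to each side. The site of each peak was therefore read as the peak without its outer 50 nt, and a wider peak as a run of merged sites, which assumes that merged sites were extended in the same way.

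**Figure D1:**
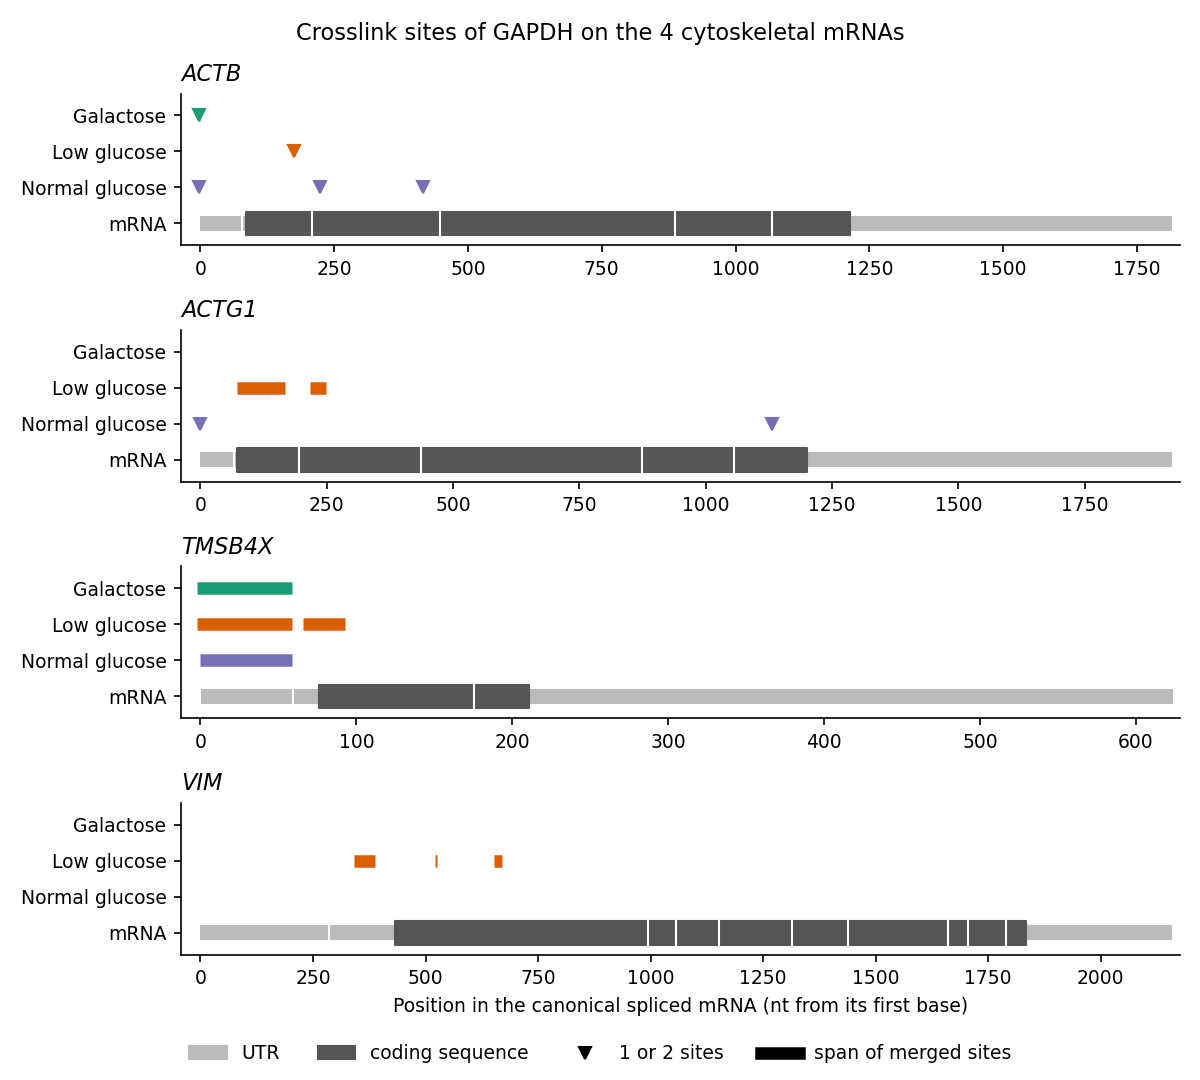
Crosslink sites on the canonical spliced mRNAs of ACTB, ACTG1, TMSB4X and VIM. The horizontal axis is the position in the mRNA in nt, grey bars are untranslated regions, dark bars coding sequence and white lines exon borders; coloured marks give the sites of each list, with sites beyond the end of TMSB4X exon 1 cut at that end. All marks lie upstream of the stop codon, and galactose marks are at the transcript starts of ACTB and TMSB4X alone.

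TMSB4X was the member with a peak at the same place in all 3 lists. The gene lies on chromosome X (12975110 to 12977227, plus strand), and the peak spanned exon 1, which is 59 nt long and entirely 5′UTR. In galactose and in low glucose the peak had identical ends, chrX:12975057-12975221 (165 nt), and in normal glucose it ran from 12975059 to 12975221 (163 nt). The run of sites began 3 nt before the annotated start in galactose and low glucose and 1 nt before it in normal glucose. It ended 61 nt past the start in each list, which is 3 nt beyond the last base of exon 1. The site run thus covered the whole exon. Of the 951 merged regions of the series, 11% had a peak in all 3 lists, and of 402 regions in exons of protein coding genes 7 did (1.74%). The 402 regions leave out those with a peak also annotated to a gene that is neither protein coding nor an lncRNA.

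Low glucose had a second TMSB4X peak, in exon 2 over the start codon (chrX:12976202-12976329, 128 nt). Its sites spanned 28 nt, from 10 nt before the A of the ATG to codon 6. No peak of galactose or normal glucose lay in this exon, and the nearest was the exon 1 peak, 980 nt away in the genome. Exon 1 and exon 2 are joined in the spliced mRNA, where the site runs were next to each other. A similar place was listed on a pseudogene. TMSB4XP8, a processed copy on chromosome 4 inside the gene CCSER1, had a 101-nt peak in low glucose alone (chr4:90838990-90839090), of which 98 of 101 bases (97%) were the same as in TMSB4X. Aligned to the mRNA, its site fell 3 nt before the A of the ATG, inside the site run of TMSB4X exon 2. Both windows are shown to compare the gene with its copy, with the start codon or its counterpart in capitals.
TMSB4X exon 2, chrX:12976252-12976279, plus strand: ctccgcaaccATGtctgacaaacccgat
TMSB4XP8, chr4:90839020-90839047, minus strand: ctccgcaaccATGtctgacaaacccgat
These 28 bases were identical. Of the 99 stretches of 30 nt in the exon 2 peak, 56 (56.6%) occurred elsewhere in the genome. Of these, 44 were in TMSB4XP2, 33 in TMSB4XP8, 26 in TMSB4XP6, 25 in TMSB4XP4, 19 in the chromosome Y gene TMSB4Y and 9 in TMSB4XP1. The exon 1 peak had fewer such stretches, 20 of 136 (14.7%) in galactose and low glucose and 20 of 134 (14.9%) in normal glucose. All 20 occurred within CCSER1, the gene around TMSB4XP8, outside that copy as annotated. Of these, 14 also occurred in TMSB4XP4 and 11 in CCDC30, the gene around TMSB4XP1. Of the 165 nt in galactose and low glucose, 59 were exonic, 53 lay upstream of the transcript and 53 in the intron. The exon 2 peak held 84 exonic and 44 intron nt. Copies of the spliced mRNA lack upstream and intron bases, so the shares of the 2 peaks are not directly comparable. How reads were shared between the gene and its copies was not tested.

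ACTB had its transcript start in the galactose and the normal glucose lists. The gene lies on chromosome 7 (5526409 to 5563902, minus strand). The galactose peak was chr7:5530553-5530654 (102 nt, sites 3 and 2 nt before the canonical start), and the normal glucose peak was chr7:5530554-5530654 (101 nt, site 3 nt before it). The upstream site of both coincided with the annotated first base of another ACTB transcript. This was the single member region with peaks of exactly 2 lists, a class that took in 15.7% of all regions. The nearest low glucose peak was 934 nt away in the genome, in exon 2.

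Inside the coding sequence of ACTB, low and normal glucose had different sites. The low glucose site (chr7:5529518-5529618, 101 nt) lay in exon 2 at codon 30. The normal glucose sites lay in exon 3, at codon 47 (chr7:5529334-5529434) and codon 111 (chr7:5529143-5529243), both with 101 nt. The closest of them was 83 nt from the low glucose peak in the genome, across an intron. In the spliced mRNA the low glucose site was base 174 and the codon 47 site base 224, so these 2 sites lie close on the mRNA. All 3 sites were in the first part of the open reading frame, at 9.6%, 12.4% and 22.9% of the length of the 1812-nt mRNA.

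ACTG1, on chromosome 17 (81509413 to 81523847, minus strand), had 2 peaks in low glucose, 2 in normal glucose and none in galactose, and no place was shared between the lists. The first low glucose peak was the widest of all member peaks (chr17:81512210-81512405, 196 nt). Its sites ran over 96 nt of exon 2, from 1 nt before the A of the start codon to codon 32. The second (chr17:81512039-81512172, 134 nt) had sites over 34 nt of exon 3, codons 48 to 59. Together they covered much of the stretch between the start codon and codon 59, on either side of the intron that separates exons 2 and 3. The peaks themselves were 37 nt apart in the genome. In the spliced mRNA the runs of sites were bases 72 to 167 and 216 to 249. In normal glucose the first peak was at the transcript start (chr17:81512751-81512851, site 2 nt before it), 345 nt from the nearest low glucose peak in the genome. The other (chr17:81510708-81510808) was in exon 6 at codon 354, at 59% of the 1919-nt mRNA, which was the most 3′ of all member sites.

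Counted with the same rule, 2 of 2 galactose peaks had their first site within 5 nt of the canonical start (ACTB and TMSB4X), 1 of 8 low glucose peaks (TMSB4X) and 3 of 6 normal glucose peaks (ACTB, ACTG1 and TMSB4X). Over all peaks in exons of protein coding genes this share was 16.8% in galactose, 7.25% in low glucose and 8.12% under normal glucose. At the actin starts about as many bases of the peak lay upstream of the canonical transcript as within it, for example 49 exonic and 53 upstream bases in the galactose ACTB peak.

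The coding sequences of ACTB and ACTG1 are equally long (1128 nt), without insertions, so sites of both can be put on a common scale. They shared 1029 of 1128 bases (91.2%), with the lowest identity in exon 2 (82.9%) and 91.6% to 93.4% in exons 3 to 6. The low glucose site of ACTB, at coding base 90, lay inside the low glucose site run of ACTG1, which ended at base 95. Both sequences around it are shown to let the reader see how they differ, with the 11 bases that differ between the genes in capitals (coding bases 61 to 123, exon 2).
ACTB, chr7:5529535-5529597, minus strand: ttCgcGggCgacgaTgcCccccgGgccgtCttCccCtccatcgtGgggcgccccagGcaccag
ACTG1, chr17:81512232-81512294, minus strand: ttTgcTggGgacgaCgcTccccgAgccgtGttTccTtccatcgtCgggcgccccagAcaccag
None of the 72 stretches of 30 nt in the ACTB peak occurred elsewhere in the genome, and in the ACTG1 peak 5 of 167 did (2.99%). The same window of both actins was thus listed in low glucose. These stretches were compared exactly and in the genome, and 17 of 101 nt of the ACTB peak and 67 of 196 nt of the ACTG1 peak were intron. How reads were shared between the 2 genes was not tested.

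In exon 3 the paralogues had neighbouring sites in different lists. The normal glucose site of ACTB at codon 47 was coding base 140, and the low glucose run of ACTG1 began 4 nt further on, at base 144. Here the sequence was less particular to each gene. In the ACTB peak 42 of 72 stretches (58.3%) recurred, all 42 of them in the pseudogene ACTBP2, and in the ACTG1 peak 22 of 105 did (21%). The remaining coding sites of the actins had no partner nearby. The ACTB site at coding base 331 lay 154 nt, and the ACTG1 site at base 1060 lay 729 nt, from the closest site of the other gene.

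**Figure D2:**
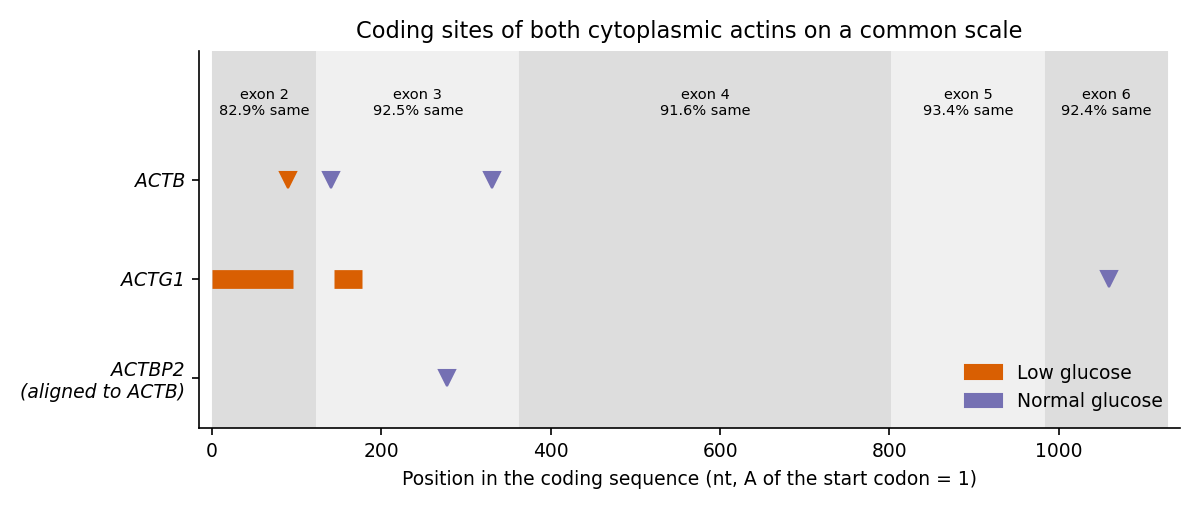
Sites inside the coding sequences of ACTB and ACTG1 on a common scale in nt from the A of the start codon, with the site of the pseudogene ACTBP2 at its aligned position in ACTB. Triangles are single sites, bars are runs of sites, shading marks exons with the percentage of bases shared by ACTB and ACTG1, and the low glucose marks of both genes meet in exon 2 at base 90.

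The most 3′ site, that of ACTG1 in normal glucose, is shown with 25 coding bases on each side and the site in capitals, since it was a single position.
ACTG1 codon 354, chr17:81510733-81510783, minus strand: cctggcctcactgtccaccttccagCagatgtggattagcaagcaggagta
A G stood directly before this site. Of the 6 single-site (101 nt) member peaks, 3 had a G at that place, and all 3 were among the 5 of normal glucose (ACTB codon 111, ACTG1 codon 354 and the ACTG1 start). The low glucose site of ACTB followed a T, and the others a C or an A. This count depends on the reading of the start column as counted from 1, since with starts counted from 0 it was 1 of 6. The wider background was the single-site peaks whose annotated genes all lie on 1 strand (169 in galactose, 203 in low glucose, 266 in normal glucose). Their share with a G before the site was 24.3% in galactose, 26.1% in low glucose and 62.8% under normal glucose. These shares were computed with starts counted from 1 alone. RNase T1 leaves ends after G, and its part in these positions was not tested.

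The recurrence of sequence was uneven among the actin sites. The ACTG1 site at codon 354 had the highest share of all member peaks, with 45 of 72 stretches of 30 nt (62.5%) found elsewhere, 43 of them in ACTG1P9, 33 in ACTG1P1 and 30 in ACTG1P20. The ACTB site at codon 111 had 28 of 72 (38.9%), 25 of them in each of POTEE, POTEI and POTEJ, genes that carry an actin-derived stretch, and 10 in ACTG1. Both transcript starts had 0, in peaks that lay partly upstream of the transcript. The pseudogene ACTBP2 on chromosome 5, within the gene TBCA, had a normal glucose peak of its own (chr5:77785114-77785214, 101 nt), in which 94 of 101 bases (93.1%) were those of ACTB. Its site aligned to ACTB exon 3, 53 nt from the ACTB site at codon 111. Of its 72 stretches, 3 occurred in the ACTB mRNA and 19 in the ACTG1 mRNA, so part of the peak could not be assigned to a gene from sequence.

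**Figure D3:**
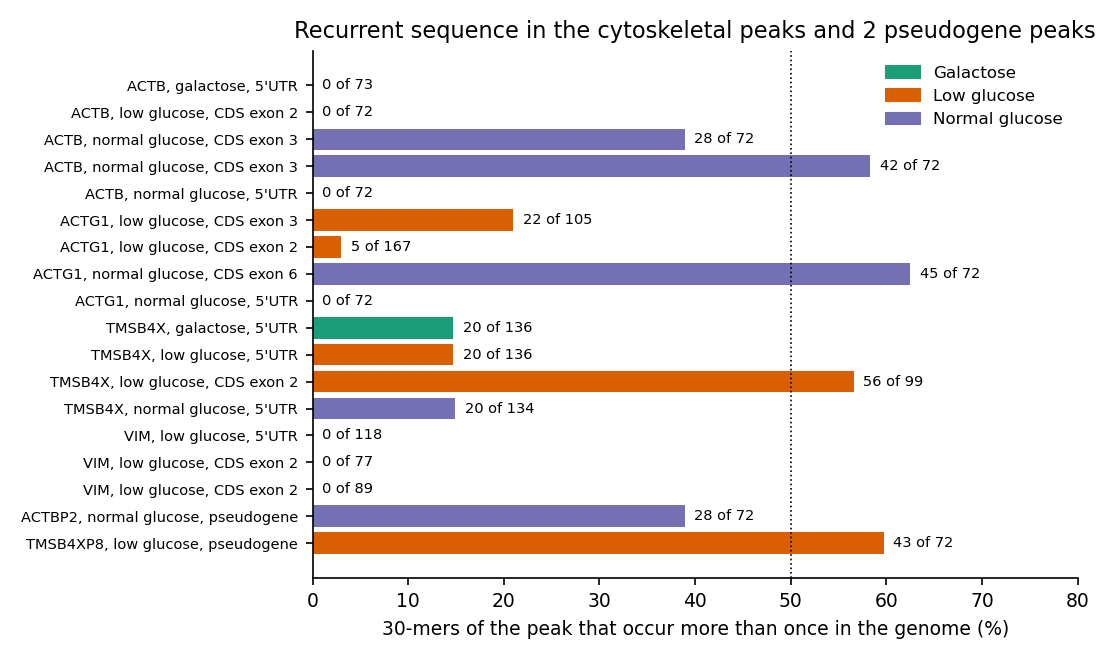
Share of the 30-nt stretches of each peak that occur more than once in hg38 (horizontal axis, %), for the 16 member peaks and the pseudogene peaks of ACTBP2 and TMSB4XP8, with the numbers beside each bar and the colour giving the list. The dotted line is at 50%; 3 member peaks lie beyond it, in ACTB exon 3, ACTG1 exon 6 and TMSB4X exon 2, and 7 member peaks are at 0.

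VIM had peaks in low glucose alone, 3 of them, all in exon 2 and all also annotated to VIM-AS1. VIM lies on chromosome 10 (17228241 to 17237593, plus strand) and VIM-AS1 crosses its start from the other side (17214239 to 17230018, minus strand). The first peak (chr10:17229283-17229429, 147 nt) had sites over 47 nt of the 5′UTR, with the middle 67 nt before the A of the ATG. The second peak (chr10:17229462-17229567, 106 nt) had 6 nt of sites at codons 30 to 32, and the last (chr10:17229593-17229710, 118 nt) had 18 nt at codons 74 to 80. The peaks were 32 and 25 nt apart. Of the 309 protein coding genes with a low glucose peak, 4.85% had 3 or more peaks anywhere in the gene. The bases around the sites are shown in the direction of VIM with the sites in capitals, and for the 5′UTR the central 30 bases with the middle base in capitals.
VIM 5′UTR, chr10:17229342-17229371, plus strand: caccgcgccctcgtTcgcctcttctccggg
VIM codons 30 to 32, chr10:17229487-17229542, plus strand: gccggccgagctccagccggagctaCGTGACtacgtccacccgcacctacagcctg
VIM codons 74 to 80, chr10:17229618-17229685, plus strand: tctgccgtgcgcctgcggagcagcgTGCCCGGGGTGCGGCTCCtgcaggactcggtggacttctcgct
The same positions read on the other strand fall in exon 1 of VIM-AS1 (17229345 to 17230018). The 2 coding peaks lay fully within that exon and the 5′UTR peak with 85 of its 147 bases, while all 3 lay fully within exon 2 of VIM. Because the lists give no strand, sense and antisense RNA cannot be told apart. None of the 30-nt stretches of these peaks occurred elsewhere in the genome.

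The member peaks of the lists also differed in width, which here stands for the length of the run of sites. In low glucose 7 of 8 were wider than 101 nt, from 106 nt (VIM) to 196 nt (ACTG1), and the exception was the ACTB site at codon 30. In normal glucose 5 of 6 were exactly 101 nt, and the exception was TMSB4X exon 1. The galactose peaks had 102 nt (ACTB) and 165 nt (TMSB4X). Among all peaks of a list, 101 nt was the width of 57.6% (galactose), 47.1% (low glucose) and 64.8% (normal glucose), and the medians were 101, 102 and 101 nt. The width of TMSB4X exon 1 was close to the same in each list. Among the actins the ACTB start alone was in more than a single list, with 102 nt in galactose and 101 nt in normal glucose. The widths of the other actin places could therefore not be compared between lists.

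**Figure D4:**
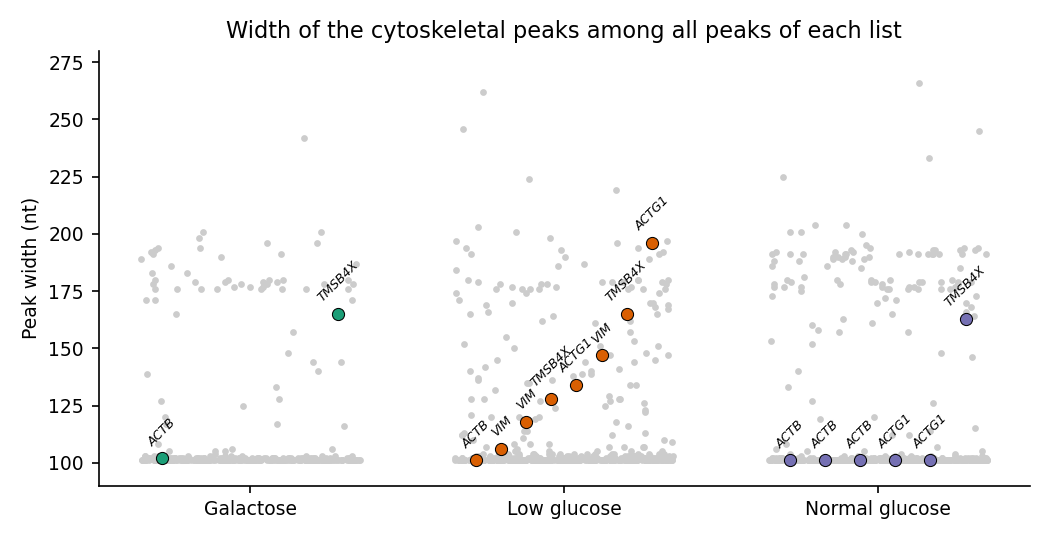
Peak width (vertical axis, nt) in the galactose, low glucose and normal glucose lists, with member peaks as coloured points named by gene and all peaks of the list as grey points spread sideways at random. Low glucose members reach from 101 to 196 nt, and 5 of the 6 normal glucose members lie at 101 nt.

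The member peaks were rich in G and C, from 52.3% (TMSB4X exon 2) to 76.5% (the galactose ACTB start), with a median of 68.5%. These shares count the whole peak in the genome, with its added flanks. In the galactose ACTB peak 53 of 102 nt lay upstream of the canonical transcript. In the galactose TMSB4X peak 59 of 165 nt were exonic. The 5′ parts of these mRNAs are themselves GC-rich. In the canonical mRNAs the 5′UTR had 76.2% GC in ACTB, 68.1% in ACTG1, 62.7% in TMSB4X and 63.6% in VIM, against 42.2%, 43.5%, 41.3% and 32.3% in the 3′UTR. Over all exonic protein coding peaks the median was 67.6% in galactose, 66.3% in low glucose and 60.4% under normal glucose. GAPDH has been described as a binder of AU-rich elements in 3′UTRs, whose core is a pentamer spelled ATTTA in DNA letters. The 3′UTRs of ACTB, ACTG1, VIM and TMSB4X hold 1, 2, 1 and 0 such pentamers, and no member peak reached them. On the strand of the gene, with overlaps counted, ATTTA occurred in 3 of 16 member peaks. All 3 were the TMSB4X exon 1 peaks, where the pentamer lies 49 nt before the transcript start, in the added flank and outside the sites. In exonic protein coding peaks it was found in 2.52%, 2.07% and 3.12% of the galactose, low glucose and normal glucose lists.

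Across the 13 merged regions of these genes, 11 had a peak in a single list, against 73.3% of all regions of the series. Regions were compared in the genome, so sites in neighbouring exons counted apart even where they lie close in the spliced mRNA. Regions in exons of protein coding genes, without those also annotated to other gene types than lncRNA, were less often in all 3 lists (1.74% against 11%). How much of this gap comes from leaving those out was not computed. The single-list share of these exonic regions was not computed either, so 73.3% is not a like background. For ACTB and ACTG1 together, 1 of 8 places was listed in more than 1 condition, and it was a transcript start. The gene-level view is less divided, since ACTB and TMSB4X were named in all 3 lists and ACTG1 in low and normal glucose. For TMSB4X the same exon 1 place was shared by all lists, and for ACTB the start was shared by galactose and normal glucose, whereas ACTG1, and ACTB in low glucose, were named through places of a single list.

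Other genes of the cytoskeleton had peaks too. Of 78 listed genes, 12 had a peak in some list, and 4 of these 12 were the members ACTB, ACTG1, TMSB4X and VIM, which were chosen for their peaks. By list the count was 3 (galactose), 9 (low glucose) and 10 (normal glucose), of which 1, 5 and 7 were not members. Of all 20046 annotated protein coding genes, expressed or not, 1.1% (galactose), 1.54% (low glucose) and 1.38% (normal glucose) had a peak. The 12 genes comprised 2 of 6 actins, both of them members, 2 of 4 thymosins, 2 of 14 genes for actin monomer binding, severing and capping, 0 of 12 for nucleation and branching, 2 of 12 for crosslinking and membrane linkage, 1 of 9 myosins and tropomyosins, 1 of 10 intermediate filament genes and 2 of 11 tubulins with stathmin. Apart from the members these were CFL1 (cofilin, which severs filaments), PFN1 (profilin, which binds monomers), FLNA and TAGLN2 (filament crosslinkers), MYH9 (a non-muscle myosin heavy chain), TMSB10 (a second thymosin), and the alpha-tubulins TUBA1B and TUBA4A. TAGLN2 resembled ACTB in its places, with its start listed in galactose (site 3 nt before it) and normal glucose (1 nt before it) and a different peak, in exon 2, in low glucose. PFN1, like ACTG1, had a wide low glucose peak over its start codon (197 nt), but placed differently. Its sites ran from 77 nt before the A of the ATG to codon 7, those of ACTG1 from 1 nt before it to codon 32. TMSB10, in contrast to TMSB4X, had no exon 1 peak and instead 3 single sites in normal glucose, at codons 27 and 42 and in the 3′UTR, each after a G. The remaining peaks were in the 5′UTR (MYH9 and TUBA1B in low glucose), in coding sequence (MYH9 codon 968, TUBA1B codon 284 and TUBA4A codons 423 to 424 in normal glucose), in the 3′UTR (FLNA in low glucose, CFL1 and PFN1 in normal glucose) and in a MYH9 intron in normal glucose. All 72 stretches of 30 nt in the TUBA1B codon 284 peak (100%) recurred elsewhere in the genome, so that this peak cannot be assigned to TUBA1B from sequence. In normal glucose these other genes had 10 peaks, of which 8 were 101 nt wide and 7 of those 8 had a G before the site (0 of 8 with starts counted from 0), and in low glucose 5 peaks, none of 101 nt.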

How the data were processed

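Peak lists of GAPDH CLIP-seq from 6 MOLM-13 samples, 2 per condition, were used as deposited. Trimming and alignment tools in the submitters' processing notes are cutadapt and STAR (no versions given), and the build is hg38 (GRCh38). PureCLIP gave the crosslink sites according to the study's methods, and the authors merged neighbouring sites and extended solitary ones by 50 nt. Per the labels both samples of a condition were joined. The 5 deposited columns hold chromosome, start, end, Ensembl identifier and symbol, without read numbers. The threshold and joining rule of the authors decide which places appear.

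Positions were read as 1-based with both ends included. Genes, canonical transcripts and strand came from GENCODE release 44, in which all 19 member entries kept their identifier and symbol. A peak's region was that of its middle over all protein coding transcripts, taking CDS first, then 5′UTR, 3′UTR and intron. Peaks overlapping by at least 1 nt in the genome were merged into regions. Sets of peaks and regions in exons of protein coding genes left out those also annotated to a gene that is neither protein coding nor lncRNA. All 30-mers of a peak were searched on both strands of the primary hg38 chromosomes, and a peak with over 50% recurrent 30-mers was called recurrent. No test over samples was possible. Some coding sequence of the actins is not reported here. Named genes were the members, every gene with a peak in the cytoskeletal list, and processed copies named after a member. Members and lists were chosen with earlier results of these data known. Overlap, merging and transcript coordinates were tested on simulated lists. Python 3.11.15, pysam 0.24.0, Biopython 1.88, numba 0.67.0, numpy 2.4.6, matplotlib 3.10.9 and samtools 1.23.1 were used.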

Additional observations from a re-analysis of the deposited data

How the results depend on the processing

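No paired analysis was possible because the authors joined the 2 samples of each condition into 1 list. For the same reason no replicate could be left out, and without scores no stricter peak threshold could be tried. Of 30 alternative values, 26 stayed within 1.5 times the main value and 4 moved further. Without peaks annotated to more than 1 gene, low glucose kept 5 member peaks in place of 8, as the 3 VIM peaks are shared with VIM-AS1. With the canonical transcript alone, or with the region holding most bases of a peak, 4 peaks in place of 7 were in the 5′UTR, because the 3 start peaks of ACTB and ACTG1 then lay outside the transcript. With starts counted from 0, 1 of 6 single-site peaks in place of 3 had a G before the site. Without recurrent peaks the lists held 2, 7 and 4 member peaks. The number of shared regions was 2 under every overlap rule tried. Depth is unknown, so a place missing from a list is not shown to be unbound.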
